A study of Mus musculus with 9 samples.

Results

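The genes of sugar breakdown and of the response to low oxygen were followed in mouse kidney: the hexokinases, the enzymes of glycolysis down to lactate, the PFKFB enzymes that set its pace, the fructose-entry enzyme Khk, the lactate carrier Slc16a3, and the hypoxia-inducible factor (HIF) system with 8 of its targets outside glycolysis. The set of 38 gene symbols was matched to 39 of the 29678 gene identifiers in the count tables, since Aldoa is carried by a pair of identifiers, and all 39 passed the filter on low counts. Kidneys came from sham-operated mice (label Sham), from mice with bilateral ischemia-reperfusion injury, in which the blood flow to both kidneys is stopped and then restored (label bIRI), and from mice that received sodium beta-hydroxybutyrate, the salt of a ketone body, ahead of the same injury (label BHBNa_bIRI, here BHB plus bIRI). All were taken 24 h after reperfusion. The labels give no genotype, strain, age or sex, and no dose or interval for the beta-hydroxybutyrate, and they do not say whether libraries of a group came from separate animals, so p-values measure only the spread between libraries, which may be technical. Each group is labelled with 3 libraries, but bIRI replicate 2 held the rounded-down mean of bIRI replicates 1 and 3 in every gene, so bIRI is represented by 2 libraries and the comparisons rest on 8.

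Glycolysis splits glucose into pyruvate in the cytosol and needs no oxygen, and lactate dehydrogenase turns pyruvate into lactate when mitochondria do not take it up. In healthy kidney the proximal tubule burns fatty acids and makes glucose rather than breaking it down, and glycolysis is strongest in the distal nephron and the medulla. When oxygen is short, prolyl hydroxylases stop marking the HIF alpha subunits for destruction, and HIF then binds a short core motif near genes of glycolysis, blood vessel growth and mitochondrial turnover.

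Sequence before the start site is shown for 5 of the genes, to set the HIF core motif beside the values that follow: the hexokinase Hk2 and the lactate carrier Slc16a3, whose RNA rose after bIRI, and the HIF targets Pgk1 and Bnip3, whose RNA fell, and Ldha, which was not called. Each line holds the 250 bases before the RefSeq start on GRCm38.p6, read 5′ to 3′ on the strand of the gene: Hk2 at chr6:82774455-82774704 on the minus strand, Slc16a3 at chr11:120948817-120949066 on the plus strand, Ldha at chr7:46845554-46845803 on the plus strand, Pgk1 at chrX:106186850-106187099 on the plus strand, Bnip3 at chr7:138909507-138909756 on the minus strand. Capitals mark ACGTG and GCGTG, the letters of the HIF core, and their reverse complements CACGT and CACGC. The palindrome CACGTG, which is also the letter string of an E-box, reads as a core on both strands.
Hk2: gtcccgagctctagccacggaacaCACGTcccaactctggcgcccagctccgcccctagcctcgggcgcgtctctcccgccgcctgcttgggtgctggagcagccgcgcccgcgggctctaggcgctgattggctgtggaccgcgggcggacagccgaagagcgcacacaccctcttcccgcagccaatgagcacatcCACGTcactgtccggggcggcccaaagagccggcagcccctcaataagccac
Slc16a3: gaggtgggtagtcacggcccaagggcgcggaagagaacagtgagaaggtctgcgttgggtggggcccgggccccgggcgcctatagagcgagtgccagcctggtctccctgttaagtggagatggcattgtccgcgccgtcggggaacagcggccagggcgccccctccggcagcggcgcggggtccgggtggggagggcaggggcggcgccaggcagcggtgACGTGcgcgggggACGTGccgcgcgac
Ldha: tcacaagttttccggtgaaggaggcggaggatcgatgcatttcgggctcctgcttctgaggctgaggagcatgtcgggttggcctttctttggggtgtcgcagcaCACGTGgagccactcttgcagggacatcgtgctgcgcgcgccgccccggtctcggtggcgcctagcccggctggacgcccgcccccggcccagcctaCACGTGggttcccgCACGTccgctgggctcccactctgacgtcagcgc
Pgk1: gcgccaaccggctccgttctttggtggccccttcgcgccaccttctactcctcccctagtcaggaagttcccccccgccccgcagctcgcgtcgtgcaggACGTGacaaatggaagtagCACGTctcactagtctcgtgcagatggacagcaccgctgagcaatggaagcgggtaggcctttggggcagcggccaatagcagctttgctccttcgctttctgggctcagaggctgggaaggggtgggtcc
Bnip3: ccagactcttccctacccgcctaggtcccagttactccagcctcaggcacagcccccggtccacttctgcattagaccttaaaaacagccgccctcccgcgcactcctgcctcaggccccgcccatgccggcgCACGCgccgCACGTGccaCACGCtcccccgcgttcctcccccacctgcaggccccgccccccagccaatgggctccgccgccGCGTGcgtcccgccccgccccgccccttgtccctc
Hk2 and Slc16a3 each held 2 such matches, and so did Pgk1, whereas Ldha and Bnip3 each held 5. RefSeq windows were available for 36 of the 38 symbols and numbered 55, counting alternative starts. A core on either strand stood in 42 of the 55 windows (76.4%), against 12679 of the 32851 windows of all genes (38.6%). By gene, 32 of 36 had a match in at least 1 window (88.9%), against 41.5% of all genes with a window. Matches were held by 8 of the 9 genes that rose after bIRI, by 9 of the 11 with a window that fell, and by 15 of the 16 with a window that were not called. A match of these letters is not a bound site, and binding was not measured.

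Summed counts per library ran from 33477985 in bIRI replicate 3 to 45909063 in sham replicate 2, and levels below are CPM, the counts scaled to a common library size, on TMM-scaled library sizes, listed in replicate order (sham 1, 2, 3; bIRI 1, 3; BHB plus bIRI 1, 2, 3). A count of 3, the limit that a count of 0 allows for counting error only, corresponded to 0.0646 to 0.0815 CPM. Kidney identity was checked on proximal tubule markers, which summed to 11562 to 13504 CPM in sham, 1308 to 1631 CPM in bIRI and 1672 to 1909 CPM in BHB plus bIRI. All 8 of these S1-S2 markers fell in bIRI against sham, and in bulk tissue fewer cells of a type and less RNA per cell cannot be told apart. Markers of injured tubule summed to 13.6 to 20.5 CPM in sham, 1592 to 5128 CPM in bIRI and 2860 to 3475 CPM in BHB plus bIRI. The 2 bIRI libraries stood apart from each other: thick ascending limb markers summed to 1520 CPM in replicate 1 and 4258 CPM in replicate 3, with Slc12a1 at 33.1 and 1114 CPM. In sham the sum of these markers was 2257 to 3743 CPM. Among the 39 rows, bIRI 3 was the highest of the 8 libraries in 9 and the lowest in 9 (over all 17967 genes tested, 25.6% and 23.8%), and each result that rests on 1 of these libraries is given without it. Without bIRI 1 or bIRI 3 the bIRI arm holds 1 library, which is then assumed to vary as the libraries of the other groups do, so adjusted p-values without either of them are not a check of the spread within bIRI.

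**Figure D1:**
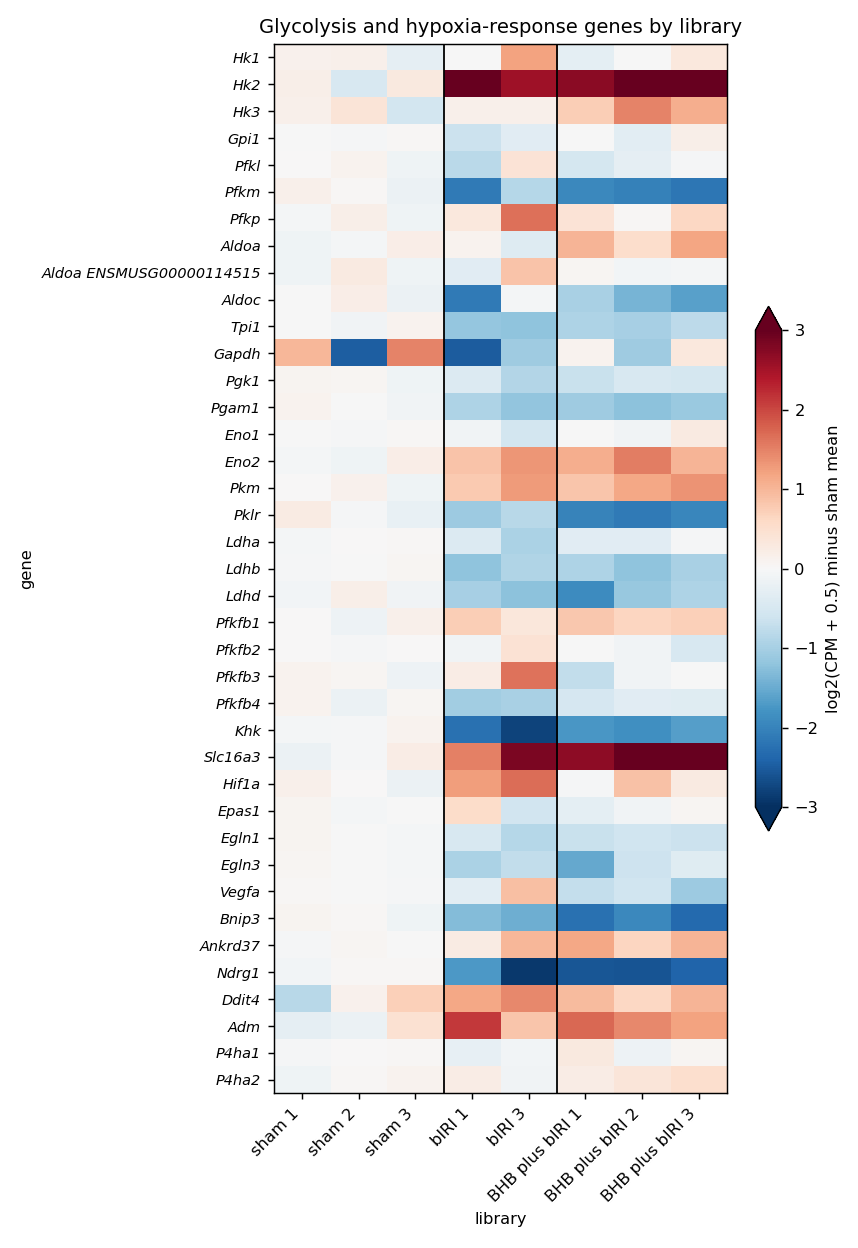
Level of each gene (vertical axis) in each of 8 libraries (horizontal axis), as log2(CPM + 0.5) minus the mean of the 3 sham libraries, with the colour scale ending at -3 and 3. Hk2 and Slc16a3 are red in all injured libraries, and Khk, Ndrg1, Bnip3, Pfkm and Pklr are blue in all of them.

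After bIRI the genes of this set changed in both directions. Against sham, 9 of the 39 rose and 12 fell at an adjusted p under 0.05 (edgeR quasi-likelihood test, Benjamini-Hochberg over 17967 genes), while 18 were not called. Over all genes tested 35.1% were called, 18.9% higher and 16.2% lower, and the set's own shares were 53.8%, 23.1% and 30.8%. Its median log2 fold change was -0.13, against 0.08 for all genes tested. The libraries of the groups did not overlap in 28 of the 39 rows (71.8%), against 55.9% of all genes. The 9 that rose were Hk2, Pfkp, Eno2, Pkm, Pfkfb3, Slc16a3, Hif1a, Ddit4 and Adm, and the 12 that fell were Pfkm, Tpi1, Pgk1, Pgam1, Pklr, Ldhb, Ldhd, Pfkfb4, Khk, Egln1, Bnip3 and Ndrg1.

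Among the hexokinases, which trap glucose in the cell by phosphorylating it, the gene called in bIRI was Hk2 (chr6:82725025-82774454), the insulin- and hypoxia-responsive form that docks on mitochondria. Its level was 0.845, 0.342 and 0.956 CPM in sham, 12.2 and 6.39 CPM in bIRI, and 7.2, 11 and 9.26 CPM in BHB plus bIRI. Both injured groups lay above every sham library without overlap. The log2 fold change in bIRI against sham was 3.70 (SE 0.44, adjusted p 0.000389), a 13-fold difference, and it was 3.10 (adjusted p 0.000127) without bIRI 1. Hk1, the form found in most tissues, stood at 137, 139 and 105 CPM in sham, 124 and 291 CPM in bIRI and 103, 125 and 158 CPM in BHB plus bIRI. Only bIRI 3 was high, the groups overlapped, and the log2 fold change of 0.71 (SE 0.33) had an adjusted p of 0.126 (1.13, adjusted p 0.00227, without bIRI 1). Hk3, a form of white blood cells, was at 0.572, 0.753 and 0.155 CPM in sham and 0.569 and 0.567 CPM in bIRI, within the sham range.

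The upper steps of glycolysis showed a change of phosphofructokinase genes, the committed step of the pathway. Pfkm, the muscle-type gene, was at 73.1, 66.8 and 57.5 CPM in sham, 14.6 and 36.1 CPM in bIRI and 16.7, 15.7 and 14.2 CPM in BHB plus bIRI. It fell in bIRI by 1.37 on the log2 scale (SE 0.33, adjusted p 0.0109), with no overlap, and the log2 fold change was -2.17 (adjusted p 2.47e-05) without bIRI 3. Pfkp, the platelet-type gene, was at 49.5, 58.3 and 47 CPM in sham, 63.6 and 163 CPM in bIRI and 68.8, 52.8 and 79.7 CPM in BHB plus bIRI. It rose in bIRI by 1.13 on the log2 scale (SE 0.34, adjusted p 0.0282). This rested on bIRI 3, without which the value was 0.30. Thick ascending limb markers summed to 4258 CPM in bIRI 3, 1520 CPM in bIRI 1 and 2257 to 3743 CPM in sham. The part of these markers in the level of Pfkp was not tested. The call on Pfkp ended without sham 1, 2 or 3, at 1.11, 1.21 and 1.07 (adjusted p 0.0831, 0.0567 and 0.0886). Pfkl, the liver-type gene, was at 86.7, 92.8 and 77.9 CPM in sham, 48.8 and 113 CPM in bIRI and 59.5, 71.4 and 83.7 CPM in BHB plus bIRI, overlapping throughout.

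Of the other upper-glycolysis genes, Tpi1, which interconverts the triose phosphates, fell in bIRI by 1.19 on the log2 scale (SE 0.21, adjusted p 0.00238). Its levels were 1050, 982 and 1137 CPM in sham, 471 and 456 CPM in bIRI and 558, 525 and 615 CPM in BHB plus bIRI, so every injured library was well below sham. Aldoa, the aldolase of most tissues (chr7:126795234-126800751), was at 1032, 1080 and 1300 CPM in sham and 1214 and 869 CPM in bIRI. Those groups overlapped and the log2 fold change was -0.13 (SE 0.27, adjusted p 0.751). Gpi1, which turns glucose phosphate into fructose phosphate, ranged from 624 to 660 CPM in sham and was lower, at 410 and 505 CPM, in bIRI, with a log2 fold change of -0.49 and an adjusted p of 0.115. Aldoc, the brain-type aldolase, was at 27.7, 32.3 and 24.6 CPM in sham and at 6.11 and 26.8 CPM in bIRI, where the 2 libraries differed more from each other than the groups did. The second Aldoa identifier, ENSMUSG00000114515, had group means of at most 0.36 CPM and was called in no comparison.

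In the lower part of the pathway the phosphoglycerate steps fell while Eno2 and Pkm rose. Pgam1, the phosphoglycerate mutase, was at 328, 304 and 282 CPM in sham, 161 and 133 CPM in bIRI and 146, 129 and 140 CPM in BHB plus bIRI. The fall in bIRI was 1.06 on the log2 scale (SE 0.19, adjusted p 0.00264), without overlap. Pgk1, which makes ATP at the phosphoglycerate kinase step, was at 698, 684 and 607 CPM in sham, 499 and 362 CPM in bIRI and 415, 473 and 461 CPM in BHB plus bIRI. Its fall of 0.62 on the log2 scale (SE 0.22, adjusted p 0.0495) was at the threshold. Leaving out any library except bIRI 1 ended that call, with log2 fold changes from -0.69 (sham 3) to -0.41 (bIRI 3) and adjusted p from 0.0673 to 0.137. Eno1, the main enolase, was at 942, 927 and 980 CPM in sham, 880 and 650 CPM in bIRI and 939, 881 and 1141 CPM in BHB plus bIRI, and was not called (log2 fold change -0.31, adjusted p 0.32). Eno2, the neuronal enolase, was low throughout, at 1.24, 1.16 and 1.6 CPM in sham, 2.8 and 4.1 CPM in bIRI and 3.4, 4.82 and 3.18 CPM in BHB plus bIRI. It rose in bIRI by 1.37 on the log2 scale (SE 0.34, adjusted p 0.0125), and at 1.26 the adjusted p was 0.0564 without sham 2. Gapdh ran from 8.2 to 134 CPM within sham alone, and no comparison called it (bIRI against sham -2.38, SE 0.96, adjusted p 0.0813). Its group means were 79, 15.2 and 44.5 CPM. The annotation holds near copies of Gapdh, and the counting could split or drop reads shared with them. Of these, Gapdhs, Gapdh-ps15 and Gapdh-ps14 held 116, 41 and 0 counts summed over the 8 libraries, against 16201 for Gapdh. The setting for shared reads is not given, so these counts cannot show how many Gapdh reads were lost. The part of near copies in the spread of Gapdh was not tested.

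Pyruvate kinase, the last step of glycolysis, changed in opposite directions in its 2 genes. Pkm (chr9:59656368-59679375), the gene of most tissues, stood at 273, 298 and 249 CPM in sham, 468 and 658 CPM in bIRI and 484, 612 and 699 CPM in BHB plus bIRI. Pklr (chr3:89136142-89146784), the liver and red cell gene, was at 36.5, 30.2 and 26.5 CPM in sham, 14.1 and 17.1 CPM in bIRI and 7.34, 6.74 and 7.5 CPM in BHB plus bIRI. All injured libraries lay above sham for Pkm and below sham for Pklr. In bIRI against sham Pkm rose by 1.04 on the log2 scale (SE 0.24, adjusted p 0.00868) and Pklr fell by 0.99 (SE 0.20, adjusted p 0.00508). Counts were made per gene, so the splice forms of Pkm cannot be told apart.

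Among the lactate genes 1 rose, 2 fell and 1 was not called. Slc16a3, the carrier that exports lactate from glycolytic cells (chr11:120948480-120960868), was at 0.845, 1 and 1.27 CPM in sham, 3.85 and 10.4 CPM in bIRI and 9.35, 13.8 and 11.8 CPM in BHB plus bIRI. It rose in bIRI by 2.78 on the log2 scale (SE 0.41, adjusted p 0.00107), and by 1.89 (adjusted p 0.000559) without bIRI 3. Ldha, the lactate dehydrogenase subunit known for turning pyruvate into lactate, was at 924, 960 and 983 CPM in sham, 716 and 497 CPM in bIRI and 752, 756 and 939 CPM in BHB plus bIRI. The bIRI libraries were the lowest, below all of sham, but the log2 fold change of -0.66 (SE 0.24) had an adjusted p of 0.0557. Ldhb, the subunit of oxidative tissue, was at 1318, 1339 and 1406 CPM in sham, 587 and 729 CPM in bIRI and 709, 584 and 686 CPM in BHB plus bIRI. It fell in bIRI by 1.04 on the log2 scale (SE 0.22, adjusted p 0.00603). After correcting for GC content and length of the longest coding transcript, the log2 fold change was -0.61 (adjusted p 0.0697). Ldhd, which oxidises D-lactate in mitochondria, was at 738, 875 and 727 CPM in sham, 392 and 329 CPM in bIRI and 209, 355 and 407 CPM in BHB plus bIRI, and it fell in bIRI by 1.11 (SE 0.30, adjusted p 0.0174). Without sham 2 that value was -1.04 (adjusted p 0.0583).

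The PFKFB enzymes make and remove fructose bisphosphate signals that switch phosphofructokinase on and off, and of their 4 genes 1 rose and 1 fell. Pfkfb3, the form that drives glycolysis most strongly, was at 22.1, 21.2 and 18.3 CPM in sham, 23.9 and 64.5 CPM in bIRI and 12.1, 19.1 and 20.4 CPM in BHB plus bIRI. Its rise in bIRI of 1.10 on the log2 scale (SE 0.37, adjusted p 0.0421) rested on bIRI 3, without which it was 0.22 (adjusted p 0.557). The call also ended without sham 1, 2 or 3 (1.16, 1.10 and 1.03, adjusted p 0.09 to 0.121) and without BHB plus bIRI 2 or 3 (both 1.11, adjusted p 0.0631 and 0.0602). Pfkfb4 was at 18.2, 14.8 and 17.6 CPM in sham, 7.92 and 8.27 CPM in bIRI and 11.8, 13.1 and 13 CPM in BHB plus bIRI. Its fall in bIRI was 1.06 on the log2 scale (SE 0.19, adjusted p 0.00284), with the 3 groups in separate ranges and bIRI lowest. Pfkfb1 was at 1.04, 0.868 and 1.19 CPM in sham, 2.06 and 1.44 CPM in bIRI and 2.19, 1.89 and 2.01 CPM in BHB plus bIRI, and was not called in bIRI (adjusted p 0.122). Pfkfb2 had group means of 4.76, 5.54 and 4.14 CPM and was called nowhere.

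Khk, which phosphorylates fructose and so feeds it into glycolysis past phosphofructokinase (chr5:30921431-30931248), had the largest fall of the 39 rows in bIRI. Its level was 583, 598 and 655 CPM in sham, 129 and 88.5 CPM in bIRI and 181, 171 and 195 CPM in BHB plus bIRI, so the 3 groups did not overlap. Its fall in bIRI was 2.49 on the log2 scale (SE 0.23, adjusted p 0.00013). Khk is a gene of the proximal tubule, whose S1-S2 markers fell in 8 of 8 in the same comparison with a median log2 fold change of -2.97. The part of those cells in the result was not tested.

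Of the HIF alpha subunits, Hif1a rose in bIRI and Epas1, the alpha subunit of endothelium and interstitium, was not called. Hif1a (chr12:73901375-73947530) was at 55.9, 50.5 and 44.5 CPM in sham, 120 and 161 CPM in bIRI and 48.5, 92.6 and 60.8 CPM in BHB plus bIRI. The rise in bIRI was 1.49 on the log2 scale (SE 0.27, adjusted p 0.00286), with no overlap. Epas1 was at 131, 118 and 122 CPM in sham, 181 and 83.4 CPM in bIRI and 100, 115 and 129 CPM in BHB plus bIRI. Its 2 bIRI libraries lay on opposite sides of sham, and the log2 fold change of 0.10 became -0.64 (adjusted p 0.0185) without bIRI 1 and 0.55 (adjusted p 0.0322) without bIRI 3. HIF alpha subunits are set mainly by protein breakdown, and protein was not measured.

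Both prolyl hydroxylases of the set, which mark HIF alpha for breakdown and are themselves HIF targets, were lower in every injured library. Egln1 was at 98.6, 92.4 and 88.8 CPM in sham, 66.9 and 51.2 CPM in bIRI and 58.1, 61.3 and 59.2 CPM in BHB plus bIRI. It fell in bIRI by 0.66 on the log2 scale (SE 0.17, adjusted p 0.0157), and the adjusted p was 0.0551 and 0.0513 without sham 1 (-0.62) or sham 2 (-0.68). Egln3 was at 42, 40.2 and 39.1 CPM in sham, 20.7 and 24.1 CPM in bIRI and 13.7, 25.9 and 31.3 CPM in BHB plus bIRI, all below sham. In bIRI its log2 fold change of -0.85 (SE 0.30) had an adjusted p of 0.0512.

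Of the 8 HIF targets outside glycolysis, 2 rose in bIRI, 2 fell and 4 were not called. Adm, a peptide that widens vessels, was at 5.57, 5.89 and 9.41 CPM in sham, 30.9 and 12.4 CPM in bIRI and 23.6, 19.4 and 16.2 CPM in BHB plus bIRI. Its rise in bIRI of 1.64 on the log2 scale (SE 0.37, adjusted p 0.0089) was 0.77 (adjusted p 0.0535) without bIRI 1. Ddit4, an inhibitor of mTOR signalling induced by stress, was at 9.22, 18.4 and 27.9 CPM in sham, 38.4 and 46.7 CPM in bIRI and 32.9, 26.3 and 34.5 CPM in BHB plus bIRI. It rose in bIRI by 1.20 on the log2 scale (SE 0.36, adjusted p 0.0293). The call ended without sham 2 (1.18, adjusted p 0.0781), bIRI 1 (1.27, 0.0641) or bIRI 3 (1.06, 0.133). Its 3 sham libraries spread over 9.22 to 27.9 CPM, without reaching the bIRI range.

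Ndrg1 and Bnip3, both known as strongly hypoxia-induced genes, fell. Ndrg1, a stress-response gene, was at 2693, 2930 and 2937 CPM in sham, 861 and 382 CPM in bIRI and 483, 470 and 543 CPM in BHB plus bIRI. It fell in bIRI by 2.20 on the log2 scale (SE 0.35, adjusted p 0.00147), and the log2 fold change was -2.97 (adjusted p 6.71e-06) without bIRI 1. Bnip3, a receptor for the removal of mitochondria (chr7:138890836-138909519), was at 170, 165 and 148 CPM in sham, 65 and 57.8 CPM in bIRI and 33.5, 41.6 and 31.6 CPM in BHB plus bIRI. It fell in bIRI by 1.39 on the log2 scale (SE 0.19, adjusted p 0.000706), and its 3 groups formed separate ranges.

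Vegfa, the vascular growth factor, was at 103, 100 and 98.4 CPM in sham, 81 and 187 CPM in bIRI and 61.5, 66.1 and 46.8 CPM in BHB plus bIRI. Its bIRI libraries lay on both sides of sham (adjusted p 0.321). Ankrd37, a small HIF target, was at 0.671, 0.753 and 0.698 CPM in sham, 0.941 and 1.92 CPM in bIRI and 2.19, 1.4 and 1.93 CPM in BHB plus bIRI, with an adjusted p of 0.0914 in bIRI. The collagen prolyl hydroxylases P4ha1 and P4ha2, which stabilise collagen, had group means of 58.4, 52.2 and 61.4 CPM and of 25.7, 27 and 33.3 CPM and were called in no comparison.

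**Figure D2:**
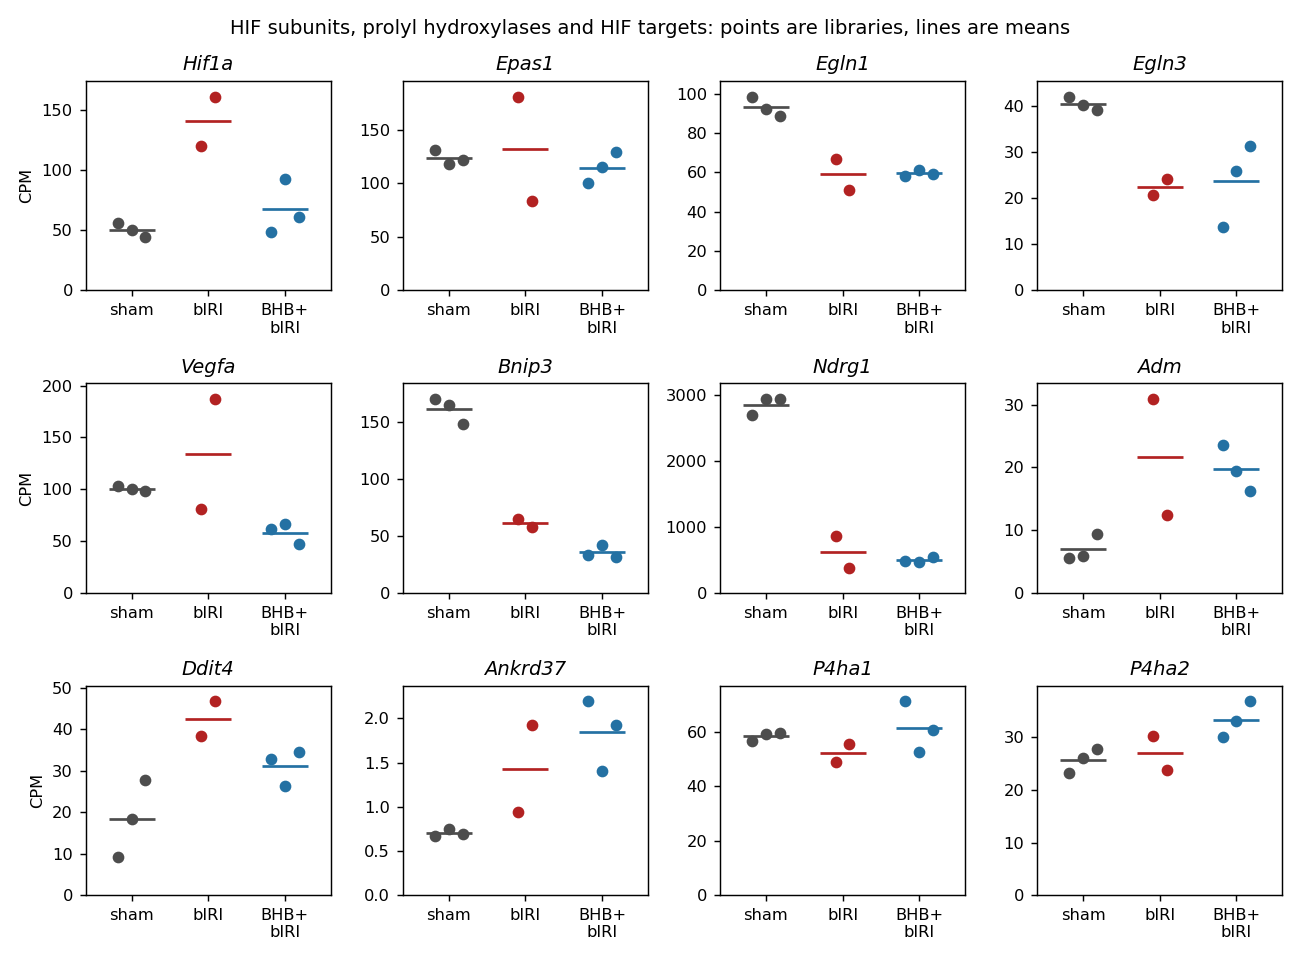
Level in CPM (vertical axis, from 0) of the HIF subunits, prolyl hydroxylases and HIF targets in sham, bIRI and BHB plus bIRI, with 1 point per library and a line at the group mean. Ndrg1 and Bnip3 are below sham in every injured library, Adm is above it, and the 2 bIRI points of Epas1 and of Vegfa fall on opposite sides of the sham points.

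The balance between isozymes was set on a common scale by dividing CPM by the kilobases of annotated exon. The 14 ratios were compared within libraries, which makes them independent of library scaling. Exon of all transcripts of a gene is counted, 13401 bases for Pfkp, 6675 for Pfkl and 3340 for Pfkm. Their longest coding transcripts hold 4145, 3730 and 2879 bases. The share of a gene in its pool, here and below, therefore turns on this choice of length. Differences in a log2 ratio between groups do not. In bIRI against sham 9 of the 14 log2 ratios did not overlap between groups (over single genes, 55.9%). An exact two-sided permutation test over 3 against 2 libraries cannot go below 0.2, and over 3 against 3 not below 0.1, so no ratio could pass the threshold. In sham the pyruvate kinase pool was 82.9%, 86.5% and 85.9% Pkm per kb, in bIRI 95.5% and 96.1%, and in BHB plus bIRI 97.7%, 98.3% and 98.4%. The summed pool was 58 to 69 CPM per kb in sham, 97.8 and 137 in bIRI and 99 to 142 in BHB plus bIRI. The log2 ratio of Pkm to Pklr was 2.01 higher in bIRI than in sham (exact permutation p 0.2, 0.311 after adjustment over the 14 ratios).

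Within phosphofructokinase, Pfkm was 56.7%, 52.3% and 53.1% of the pool per kb in sham, 26.7% and 27.1% in bIRI and 26.3%, 24.3% and 18.7% in BHB plus bIRI. Both ratios against Pfkm lay outside the sham range in bIRI, Pfkp to Pfkm by 2.50 and Pfkl to Pfkm by 1.30 on the log2 scale (exact permutation p 0.2 each). The share of Pfkp was nearly the same in both bIRI libraries, 28.9% and 30.5%, although its CPM differed. Hk2 took 0.844%, 0.34% and 1.23% of the hexokinase pool per kb in sham, 11.7% and 2.95% in bIRI and 8.35%, 10.3% and 7.27% in BHB plus bIRI. Hk1 remained the larger part in every library, at 81.6% or more.

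The lactate dehydrogenase pool was 75%, 74.6% and 75.1% Ldhb per kb in sham, 63.3% and 75.6% in bIRI and 66.5%, 62% and 60.6% in BHB plus bIRI. Here bIRI 3 was at the sham value and bIRI 1 was not, so these groups overlapped, whereas all BHB plus bIRI libraries were below sham. Summed, the pool was 1119 to 1192 CPM per kb in sham, 590 and 615 in bIRI and 601 to 720 in BHB plus bIRI. In the PFKFB pool Pfkfb3 was 38.6%, 41.9% and 34.6% in sham, 53.5% and 74.2% in bIRI, and 30.6%, 40.2% and 42.7% in BHB plus bIRI, so only the bIRI libraries stood above the other groups. The log2 ratio of Hif1a to Epas1 per kb was -1.31, -1.30 and -1.53 in sham, -0.67 and 0.87 in bIRI and -1.13, -0.39 and -1.16 in BHB plus bIRI.

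**Figure D3:**
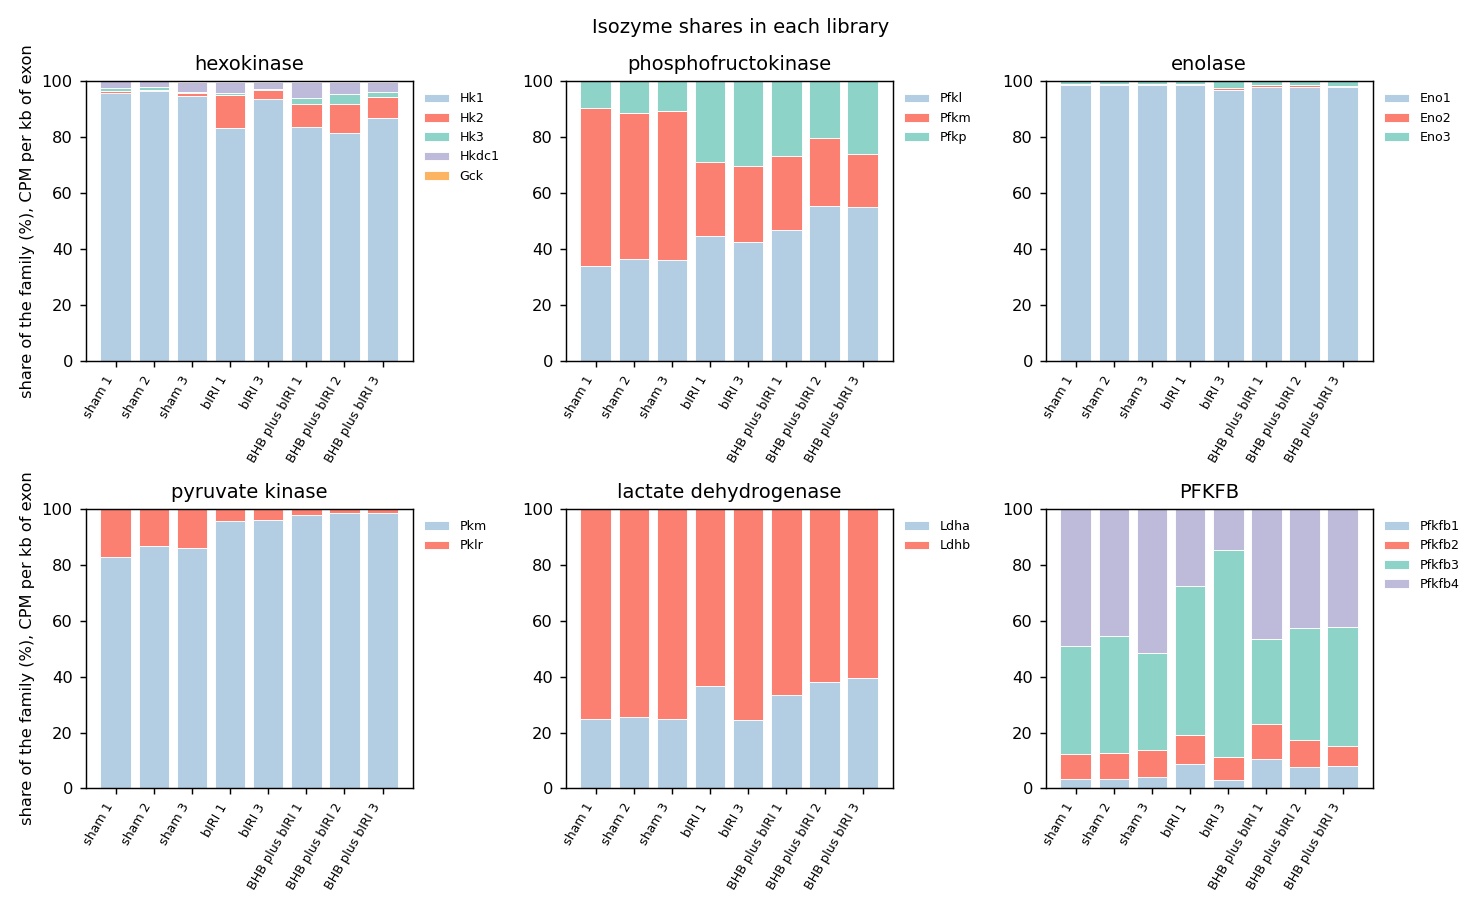
Share of each gene in its isozyme family (vertical axis, percent of the family's CPM per kb of exon) in each of 8 libraries (horizontal axis), as stacked bars from 0 to 100. The red part of the phosphofructokinase bars (Pfkm) and of the pyruvate kinase bars (Pklr) is smaller in every injured library than in every sham library.

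Kidneys with beta-hydroxybutyrate ahead of the injury were then compared with injured kidneys without it. In this comparison 2 of the 39 rows rose, Aldoa and Khk, 5 fell, Pklr, Pfkfb3, Hif1a, Vegfa and Bnip3, and 32 were not called. Over all genes tested 13.5% were called, 4.88% higher and 8.65% lower, and the set's share was 17.9%. The groups did not overlap in 15 of the 39 rows (38.5%), against 46.0% of all genes, and the median log2 fold change was 0.00, against -0.05.

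Aldoa was at 2276, 1630 and 2559 CPM in BHB plus bIRI and at 1214 and 869 CPM in bIRI, a rise of 1.05 on the log2 scale (SE 0.28, adjusted p 0.0412). Every BHB plus bIRI library was above every bIRI and sham library. Khk, at 171 to 195 CPM against 129 and 88.5 CPM, rose by 0.74 (SE 0.22, adjusted p 0.0499), which left it below the sham range of 583 to 655 CPM. After correcting for GC content and transcript length the log2 fold change of Aldoa was 0.44 (adjusted p 0.15) and that of Khk 0.09 (adjusted p 0.694).

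Of the 5 that fell, Pklr and Bnip3 were further from sham than in bIRI, while Hif1a and Pfkfb3 were nearer to it. Pklr fell by 1.12 on the log2 scale (SE 0.19, adjusted p 0.0275) and Bnip3 by 0.79 (SE 0.18, adjusted p 0.0308). For both genes the 3 groups stood in the order sham, bIRI, BHB plus bIRI with no overlap. Hif1a fell by 1.06 (SE 0.27, adjusted p 0.0359), from 120 and 161 CPM to 48.5, 92.6 and 60.8 CPM. Its value in BHB plus bIRI 1 was inside the sham range and those of replicates 2 and 3 were above it. After correcting for GC content and transcript length the log2 fold change of Hif1a was -0.49 (adjusted p 0.202). That of Pklr was then -1.26 (adjusted p 0.0518) and that of Bnip3 -0.72 (0.0586). Pfkfb3 was at -1.09 (0.0938) and Vegfa at -1.15 (0.0703).

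Pfkfb3 fell by 1.36 (SE 0.37, adjusted p 0.0418) and Vegfa by 1.21 (SE 0.30, adjusted p 0.0365). Both depended on bIRI 3, the library with the highest thick ascending limb sum. That sum was 4258 CPM, against 1520 CPM in bIRI 1, 321 to 973 CPM in BHB plus bIRI and 2257 to 3743 CPM in sham. Pfkfb3 was at 64.5 CPM in bIRI 3 and 18.3 to 22.1 CPM in sham, and Vegfa at 187 CPM and 98.4 to 103 CPM. Without bIRI 3 the log2 fold change between the injured groups was -0.48 for Pfkfb3 and -0.48 for Vegfa. Of the 5 markers of that segment 2 fell in this comparison (8.65% of all genes fell), and none of the 5 was at 0 in any library. These marker calls ended without sham 1, sham 2, bIRI 3 or any BHB plus bIRI library, and without sham 3 there was 1 such call. The part of these markers in the result was not tested.

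None of these 7 calls held against every alternative. Without sham 1 or sham 2, libraries of neither compared group, the adjusted p of the 7 was 0.054 to 0.0979, and without BHB plus bIRI 1 or 3 it was 0.105 to 0.14. Without sham 3 the 2 that remained called were Pklr and Bnip3, without bIRI 3 these were again the 2 that remained of the 7, and without BHB plus bIRI 2 the calls on Pfkfb3, Khk and Vegfa ended (adjusted p 0.0613 to 0.0789). Fitting only the compared groups left 0 of 7, with adjusted p from 0.108 to 0.15 and 1 gene called of the whole table, where 6191 genes (34.5%) had an unadjusted p under 0.05 in the fit of all 8 libraries. Leaving out bIRI 1, which leaves the bIRI arm with bIRI 3 alone, gave 17 calls.

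Several genes that were called in bIRI against sham had values close to 0 between the injured groups. Hk2 had a log2 fold change of -0.02 (SE 0.41), Pkm 0.09 (SE 0.24), Ldhb 0.00 (SE 0.21), Egln1 0.01 (SE 0.17) and Pgam1 -0.09 (SE 0.18). These standard errors leave room for differences in either direction. Pfkfb4 was 0.64 higher (SE 0.19) with an adjusted p of 0.0504, Slc16a3 0.70 higher (SE 0.40, adjusted p 0.242) and Ldha 0.43 higher (SE 0.23, adjusted p 0.225). Of the isozyme ratios 4 of 14 did not overlap between BHB plus bIRI and bIRI (over single genes, 46.0% did not overlap). Among them were Hk3 to Hk1, Pfkl to Pfkm and Pkm to Pklr. These were higher in BHB plus bIRI by 2.01, 0.50 and 1.20 on the log2 scale (exact permutation p 0.2 each, 0.7 adjusted).

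**Figure D4:**
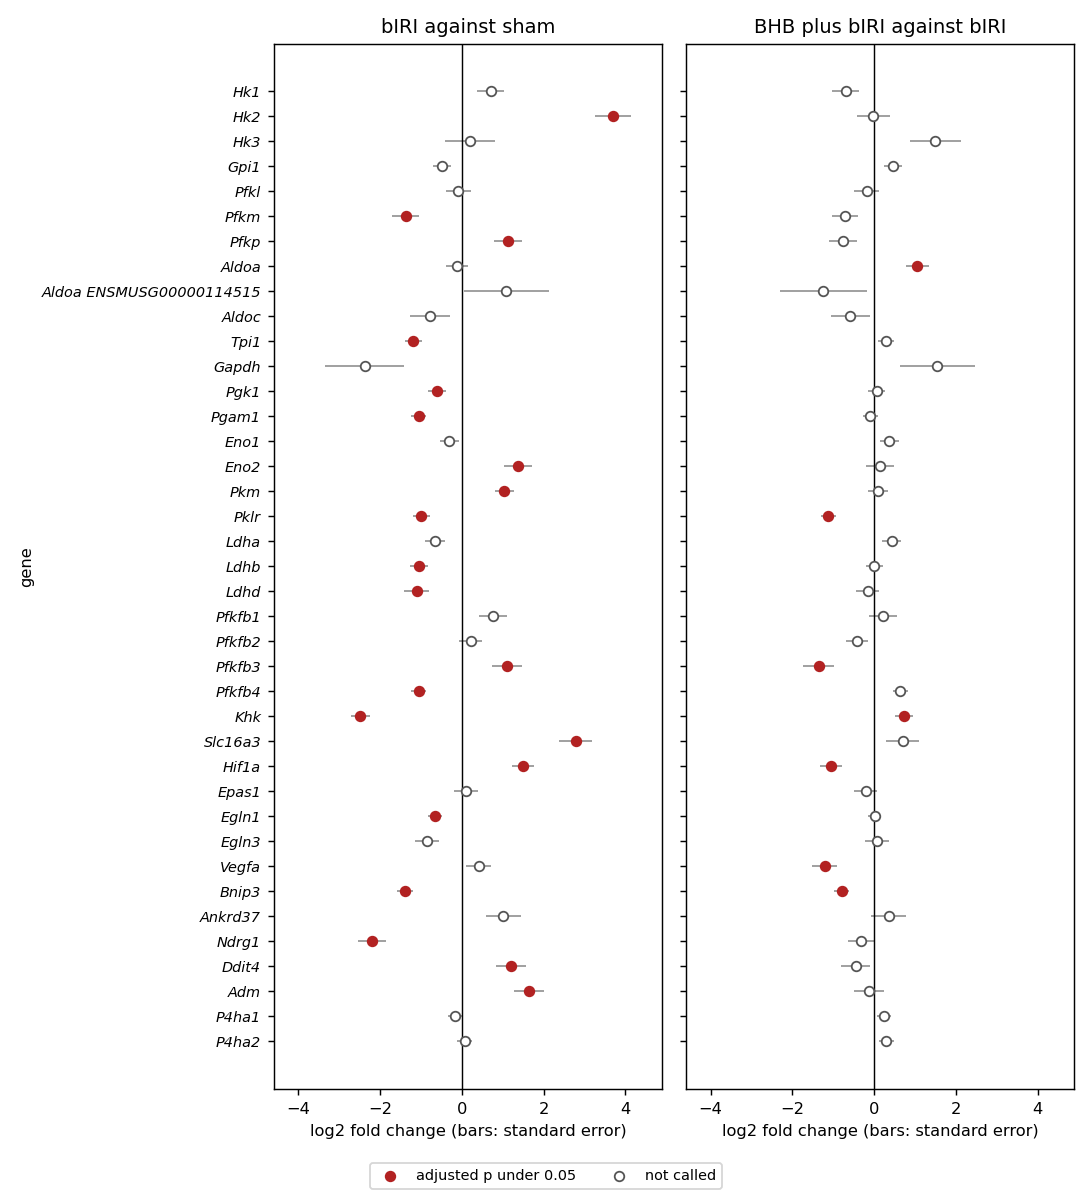
Log2 fold change (horizontal axis, with bars of 1 standard error) of each gene (vertical axis) in bIRI against sham and in BHB plus bIRI against bIRI, with filled points for an adjusted p under 0.05. Hk2 at 3.70 and Khk at -2.49 lie at the ends of the left panel among the filled points, and 7 points are filled in the right panel.

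Compared with sham, kidneys with beta-hydroxybutyrate and injury had 9 of the 39 rows higher, 14 lower and 16 not called. Over all genes tested 43.6% were called in this comparison, 21.3% higher and 22.2% lower, and the set's share was 59.0%. The groups did not overlap in 25 rows (64.1%), against 64.8% of all genes, and the median log2 fold change was -0.20, against 0.04. The sham libraries are shared with the first comparison, so the values of the 2 comparisons are given side by side and not set against each other. Hk2 rose by 3.68 (SE 0.43, adjusted p 0.000198), Slc16a3 by 3.48 (SE 0.40, adjusted p 0.000184) and Pkm by 1.13 (SE 0.22, adjusted p 0.00289). Pklr fell by 2.11 (SE 0.18, adjusted p 4.23e-05), Pfkm by 2.08 (SE 0.29, adjusted p 0.000564), Bnip3 by 2.18 (SE 0.17, adjusted p 2.7e-05) and Ndrg1 by 2.52 (SE 0.30, adjusted p 0.000234). The other rows that fell were Khk (-1.75), Tpi1 (-0.90), Pgam1 (-1.14), Ldhb (-1.04), Ldhd (-1.27), Egln1 (-0.65), Pgk1 (-0.56), Aldoc (-1.35), Egln3 (-0.77) and Vegfa (-0.79).

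The rows that rose also held Adm (1.51, adjusted p 0.0071), Eno2 (1.51, adjusted p 0.00411), Aldoa (0.92, adjusted p 0.0139), Hk3, Pfkfb1 and Ankrd37. Hk3 was at 1.1, 2.2 and 1.55 CPM in BHB plus bIRI, above the 0.155 to 0.753 CPM of sham, a rise of 1.70 (SE 0.56, adjusted p 0.033). Neutrophil markers were higher in the same libraries: all 6 tested of 7 rose against sham, their sum was 0.982 to 1.71 CPM in sham, 5.13 and 13.3 CPM in bIRI and 38.8 to 68.1 CPM in BHB plus bIRI, and the defining marker Ly6g was at 0 in sham and bIRI and at most 0.117 CPM in BHB plus bIRI. The part of these cells in the level of Hk3 was not tested. Pfkfb1 rose by 0.97 (SE 0.32, adjusted p 0.0339) and Ankrd37 by 1.37 (SE 0.39, adjusted p 0.0184). The strand setting of the counting was not given, and these 3 low genes overlap genes on the opposite strand with more reads over the 8 libraries: 320 for Hk3 against 735 for Unc5a, 542 for Pfkfb1 against 3188 for Apex2, and 448 for Ankrd37 against 10685 for Ufsp2.

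Calls against sham that a single library could end were those on Hk3, Aldoa, Aldoc, Pgk1, Pfkfb1, Egln3, Vegfa and Ankrd37, and the other 15 held in all 8 fits that left out 1 library. Without sham 1 all 8 of these ended (adjusted p 0.0683 to 0.127) and 15 calls remained. Aldoa was at 0.85, 0.87 and 0.78 without sham 1, sham 2 or BHB plus bIRI 3 (adjusted p 0.0701, 0.0671 and 0.0511). Hk3 was at 1.28 without sham 3, and at 1.41 and 1.73 without BHB plus bIRI 2 or 3 (adjusted p 0.068, 0.116 and 0.0718). Egln3 was at -0.50 without BHB plus bIRI 1 (adjusted p 0.0665). Its call and that on Ankrd37 also ended without sham 2 or sham 3 (adjusted p 0.0549 to 0.0846), that on Egln3 without BHB plus bIRI 2 (-0.84, adjusted p 0.0704), and that on Ankrd37 without BHB plus bIRI 1 or 3 (1.23 and 1.34, adjusted p 0.069 and 0.0503). The calls on Aldoc, Pgk1, Pfkfb1 and Vegfa ended without any sham or any BHB plus bIRI library, with adjusted p up to 0.148. Markers of muscle, a tissue rich in Pfkm and Aldoa, and of fat together summed to at most 0.31 CPM in sham, 0.676 CPM in bIRI and 7.54 CPM in BHB plus bIRI 2, the other 2 BHB plus bIRI libraries being at 0.543 and 0.583 CPM.

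Genes around the pathway were read from 7 further lists that hold none of the 38 symbols, beside the 35.1% of all genes called in bIRI against sham, 18.9% higher and 16.2% lower. Of 16 other enzymes of glycolysis and hexose handling 5 rose and 6 fell in bIRI against sham (7 calls without bIRI 3). Sord, which makes fructose from sorbitol, fell from 2503 to 2885 CPM to 242 and 277 CPM (log2 fold change -3.36, SE 0.24, adjusted p 5.21e-05). Akr1b8, an aldose reductase family member, rose by 3.57 (SE 0.30, adjusted p 8.74e-05), and by 2.97 without bIRI 1. Pgm1, a phosphoglucomutase, fell by 1.42 (SE 0.17, adjusted p 0.00035). Of 12 genes of pyruvate entry into mitochondria 1 rose and 7 fell, among them the dehydrogenase kinases Pdk2 (-2.46, SE 0.23) and Pdk3 (-1.51, SE 0.17), the dehydrogenase phosphatase Pdp2 (-1.60, SE 0.22) and the pyruvate carrier subunit Mpc1 (-1.38, SE 0.17). Of 7 gluconeogenesis genes 4 fell and 0 rose: G6pc (-4.02), Fbp1 (-3.54), Pcx (-2.95) and Pck1 (-2.03, and -2.66 without bIRI 1).

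Of 12 carriers of hexoses and lactate 8 fell in bIRI and 1 rose (75.0% called, against 35.1% of all genes). Those that fell included the fructose carrier Slc2a5 (-3.29, and -4.08 without bIRI 3), the basolateral glucose carrier Slc2a2 (-2.38), the sodium-coupled glucose carrier Slc5a1 (-1.39) and the sodium-coupled lactate carrier Slc5a8 (-2.90, and -3.78 without bIRI 3). Of 29 other HIF targets tested 9 rose and 7 fell (55.2% called), and the number called was 9 without sham 1 and 7 without sham 2. Plod2, a collagen lysyl hydroxylase, rose from 14.9 to 15.4 CPM to 33.9 and 52.7 CPM (1.51, SE 0.20, adjusted p 0.000631), whereas the mitochondrial adenylate kinase Ak4 fell from 417 to 615 CPM to 41.9 and 81.2 CPM (-3.04, SE 0.33, adjusted p 0.000244). Edn1, the vasoconstrictor endothelin, rose by 2.72 (SE 0.38, adjusted p 0.000789), and by 1.85 without bIRI 1. Of 10 genes of oxygen sensing 0 rose and 2 fell (4 calls without bIRI 1), Egln2 (-1.05) and Cited2 (-0.76, a call that ended without sham 1 or sham 2, adjusted p 0.0655 and 0.0763). Of 7 pentose phosphate genes 1 rose (14.3% called), Rpe (0.81), and that call ended without any sham library or bIRI 3 (adjusted p 0.0546 to 0.0697), while 4 of the 7 were called without bIRI 1 and 3 without bIRI 3.

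Between BHB plus bIRI and bIRI the lists were read beside the 13.5% of all genes called. There were calls on 0 of 16 other glycolysis and hexose enzymes (2 at an unadjusted p under 0.05), 2 of 12 for pyruvate entry, 2 of 7 for gluconeogenesis, 2 of 7 for the pentose phosphate pathway, 2 of 12 carriers, 2 of 10 for oxygen sensing and 5 of 29 other HIF targets. Lower were the pyruvate dehydrogenase subunits Pdha1 (-1.16) and Dld (-0.98), G6pc (-0.90), Rpe (-1.48), the urate and hexose carrier Slc2a9 (-0.69), the monocarboxylate carrier Slc16a7 (-2.50), Arnt2 (-0.91), Ero1l (-0.74) and Plod2 (-0.99). Higher were the mitochondrial Pck2 (1.04), Pgls (1.46), the elongin subunit Elob (1.68), Fam162a (1.13) and Mif (1.36). Slc16a7 was at 22.1 CPM in bIRI 1 and 133 CPM in bIRI 3, against 12.1 to 15.6 CPM in BHB plus bIRI, and its log2 fold change was -0.70 (adjusted p 0.0735) without bIRI 3 and -3.23 without bIRI 1. Without bIRI 1 the values of Pgls and Elob were 2.08 and 2.47. Every one of these list calls ended without sham 1, sham 2, BHB plus bIRI 1 or BHB plus bIRI 3, and without bIRI 1 the lists held from 3 to 16 calls. Without sham 3, bIRI 3 or BHB plus bIRI 2 some of the lists with 2 calls held 0 or 1.

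Against sham, where 43.6% of all genes were called, 21.3% higher and 22.2% lower, BHB plus bIRI had 4 of the 16 other glycolysis and hexose enzymes higher and 5 lower, 1 of 12 genes of pyruvate entry higher and 9 lower, and 1 of 7 gluconeogenesis genes higher and 4 lower. Among the carriers 1 of 12 rose and 9 fell, and among the other HIF targets 11 of 29 rose and 9 fell. The pentose phosphate genes had 4 of 7 higher and 1 lower, Pgls (1.29), G6pdx, the entry enzyme of the pathway (0.79), and Rpia (0.75) among the former and Rpe (-0.67) as the latter, with 3 higher and 0 lower without sham 1, sham 2, BHB plus bIRI 1 or BHB plus bIRI 3. Of the oxygen sensing genes 2 of 10 rose, the elongin subunits Elob (1.68) and Eloc (0.76), and 4 fell, among them Egln2 (-0.81) and Cited2 (-1.11).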

How the data were processed

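Poly(A) RNA of mouse kidney was sequenced in paired ends, per the labels' protocols. The submitters' processing notes list HISAT2, featureCounts (Subread) and DESeq2 and the build mm10, with no version or setting. The annotation and the strand setting of the counting are not given in the sources used here. Raw read counts were deposited by the authors, per gene and library. Symbols came from GENCODE M21 on GRCm38 (mm10), which named 29220 of 29678 identifiers.

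From these counts, filterByExpr, TMM scaling and a robust quasi-likelihood fit of 8 libraries with 1 mean per group were computed with edgeR 4.0.16 in R 4.3.3 (17967 genes, 5 residual degrees of freedom, biological coefficient of variation 0.296). All tests were two-sided, with an adjusted p threshold of 0.05. Standard errors were derived from the fold change and its F statistic. Isozyme ratios used counts plus 0.5 per kb of union exon and an exact permutation test. Promoter sequences are RefSeq's on GRCm38.p6.

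The rule for genes named was: all 38 symbols, and of each other list up to 4 called genes per comparison by smallest adjusted p. Genes, lists and rules were chosen with earlier results of these data known. Alternatives covered DESeq2 1.42.0, other scalings and filters, a correction for GC content and length (values for 17928 genes), the compared groups alone, all 9 libraries, a replicate block and leaving out each library. Some results that enter the counts are not reported here by name.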

Additional observations from a re-analysis of the deposited data

How the results depend on the processing

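In bIRI against sham, 21 of the 39 rows were called, and every alternative stayed within 1.5 times of that number. Of these calls 13 were kept in all 8 fits that left out 1 library, and 12 in those and the 10 other alternatives. Between BHB plus bIRI and bIRI the 7 calls became 0 with the compared groups only, 0 with the correction for GC content and length, and from 0 to 17 when 1 library was left out (17 without bIRI 1, where bIRI 3 stands alone and is assumed to vary as the other groups do). BHB plus bIRI against sham had 23 calls, and from 15 to 25 when 1 library was left out, the lowest without sham 1. The number of isozyme ratios that did not overlap between BHB plus bIRI and bIRI was 4, with 8 under the correction for GC content and length. It was from 5 to 10 when 1 library of the compared groups was left out, the highest without bIRI 1. Leaving out such a library can only keep or raise this number, so the rise is no check of these ratios. The direction of Epas1 turned without bIRI 1, to -0.64 in bIRI against sham (adjusted p 0.0185) and 0.51 in BHB plus bIRI against bIRI (adjusted p 0.0476), and the other ends of the range, both without bIRI 3, were 0.55 and -0.66. The cause of these shifts was not tested.

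Over the whole table, BHB plus bIRI against bIRI had 2431 calls, and 1 with the compared groups only, 2 with the GC and length correction and 0 with the replicate block. With the replicate number as a block, 18, 0 and 19 of the 39 rows were called in the 3 comparisons. For libraries with the same number, correlations of their deviations from the group means lay between -0.206 and 0.093. With 2 or 3 libraries per group, these values cannot tell whether the number marks a pairing or a batch. The labels do not say what it marks. The block left 3 residual degrees of freedom. With 2 distinct bIRI libraries, small differences between the injured groups were not detectable, and the lowest identifiers (the second Aldoa, Hk3, Ankrd37, Pfkfb1) were measured on few counts.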
